A study of Homo sapiens with 4 samples.

Results

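The mRNAs of the eukaryotic translation initiation factors were followed in RNA immunoprecipitation sequencing (RIP-seq) of HCCLM3, a human hepatocellular carcinoma cell line. They were chosen by name, as all listed genes whose symbol begins with EIF and a digit from 1 to 6. This rule took 51 of the 13300 listed gene names and 195 of the 34975 listed transcripts. A lysate of the cells was incubated with an antibody against KIAA1429 (listed as VIRMA), a subunit of the complex that writes N6-methyladenosine (m6A) into RNA, or with normal IgG, and the RNA that came down was sequenced. The IgG RIP group gives the background of the method, and the KIAA1429 RIP group asks which RNAs come down with KIAA1429. There were 2 libraries per group, 4 in all, named here IgG RIP 1 and 2 and KIAA1429 RIP 1 and 2. Pairs of values are given in the order of replicates 1 and 2. All came from the same cell line, and the labels name no genotype, treatment or time that would set them apart beyond the antibody. The labels do not say whether the replicates were separate cultures, so p-values measure the spread between these samples, which may be technical.

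Translation initiation brings a ribosome to the start codon of an mRNA. The eIF4F complex, made of the cap-binding protein eIF4E, the scaffold eIF4G and the RNA helicase eIF4A, binds the capped end. The small ribosomal subunit arrives with the multi-subunit factor eIF3, with eIF2 and the initiator tRNA, and with the factors that monitor the start codon. Cells slow this process through proteins that occupy eIF4E and through kinases that phosphorylate eIF2 and so block its recycling by eIF2B.

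The deposited values were FPKM (fragments per kilobase of transcript, scaled to the library's mapped fragments), 1 per transcript and library, and the transcripts of a gene were summed to a gene total. Log2 ratios are those of the group means, and log2 fold changes are limma's estimates on the log2(FPKM + 1) scale, both as KIAA1429 RIP over IgG RIP. The depth is not given. Among genes with 1 listed transcript, FPKM multiplied by transcript length clustered at even steps, and a step of 1 fragment implied from 752000 to 995000 counted fragments per library. This is an estimate, since from 27.9 to 33.8% of the low values lay within 0.05 of a whole fragment. By this estimate, of the 44 initiation factor genes with a known length for every transcript, 11 had over 100 fragments in every library and 7 had under 30 in every library. The hepatocyte list, with albumin and alpha-fetoprotein, was found in all libraries (summed FPKM from 355 to 410). Of 4 epithelial markers 3 were listed, KRT18 and KRT8 at means of 938 and 336 FPKM and EPCAM at 2.04 FPKM, while CDH1 was not among the listed genes, and 0 of 6 markers of blood, endothelial and stromal cells were listed. The mRNA of VIRMA itself had 17.96 and 10.01 FPKM with IgG and 18.2 and 11.6 FPKM with KIAA1429.

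No initiation factor gene total passed the test of KIAA1429 RIP against the IgG background. Of the 50 gene totals with a mean of at least 1 FPKM, 0 were called higher and 0 lower in KIAA1429 RIP, by limma with a log2 fold change beyond 1 and a Benjamini-Hochberg adjusted p under 0.05. The background was the same, at 0.0% of 11361 gene totals in either direction. Adjusted p-values of the 50 genes ran from 0.997 to 1.00, and 2 genes had an unadjusted p under 0.05 (4.0%, against 4.59% of all gene totals). These were EIF2S2 and EIF4ENIF1. An exact permutation test of 2 libraries against 2 cannot go below p = 0.333, so no single gene could pass by that route.

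**Figure D1:**
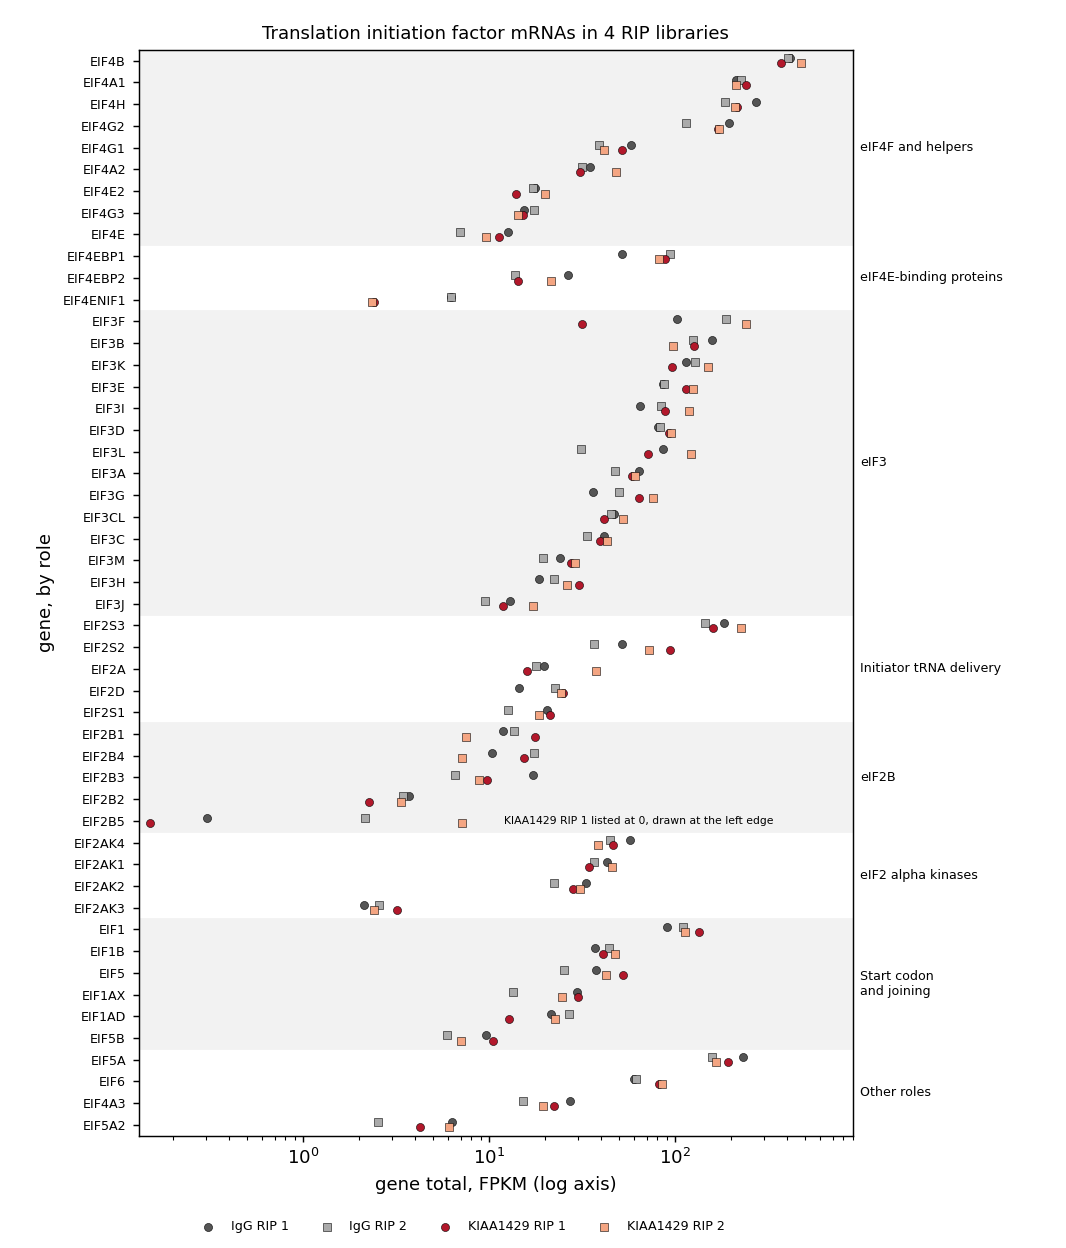
Gene totals of the 50 tested initiation factor genes (rows, grouped by role) in FPKM on a log axis, with 1 point per library (grey, IgG RIP; red, KIAA1429 RIP; circles, replicate 1; squares, replicate 2). Levels span from EIF2B5, listed at 0 in KIAA1429 RIP 1, to EIF4B at 472 FPKM, and for 36 genes the points of the groups interleave.

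The gene totals were nevertheless precise enough to bound many of the differences. The 95% interval of the fold change lay within 2-fold in both directions for 20 of the 50 genes (40.0%), against 14.1% of all gene totals. For the others a 2-fold difference lay inside the interval, so that a missed call does not bound them to less. The median gap between replicates was 0.357 on the log2 scale with IgG and 0.277 with KIAA1429, against 0.568 and 0.461 over all gene totals above 0 in each library. The part that their expression level has in this was not tested. The median log2 ratio of group means was 0.14 (quartiles -0.05 and 0.37), against 0.01 (quartiles -0.34 and 0.39) over all gene totals. Log2 fold changes were above 0 for 33 of 50 genes (66.0%), against 51.4% of all.

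In 11 of 50 genes (22.0%) both KIAA1429 RIP values lay above both IgG RIP values, against a background of 16.6% of all gene totals. In 3 genes (6.0%) both lay below, against 15.2%. A difference of at least 2-fold between group means was present in 1 gene in each direction, which is 2.0% each, against 7.58% higher and 6.14% lower over all gene totals. As a share of each library's summed FPKM, the 51 genes made up 1.10% in IgG RIP 1, 0.936% in IgG RIP 2, 0.939% in KIAA1429 RIP 1 and 1.06% in KIAA1429 RIP 2. The groups overlapped in this share.

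**Figure D2:**
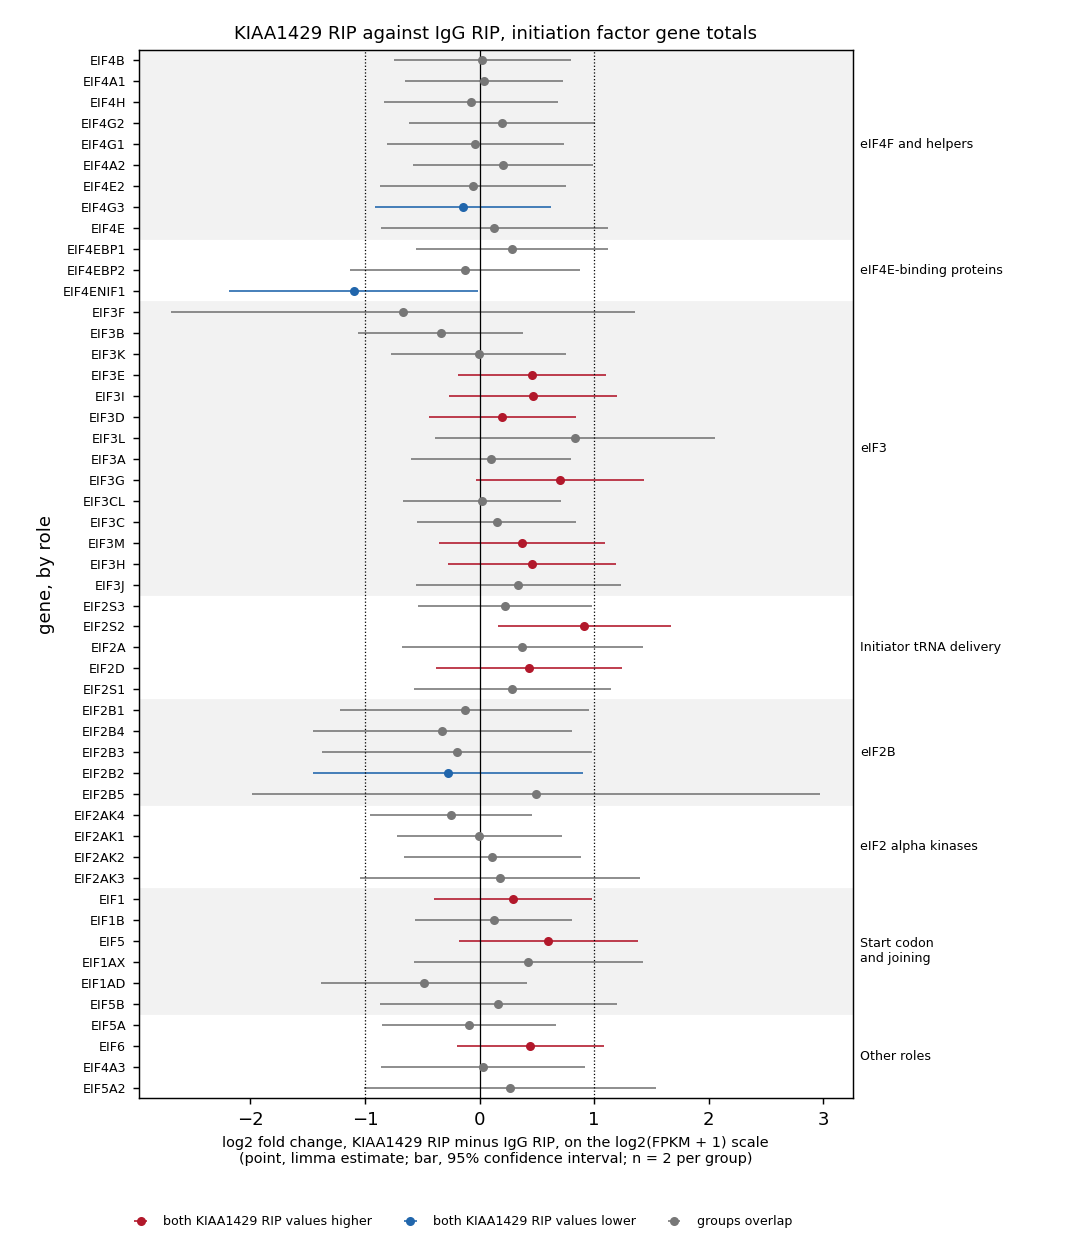
Log2 fold change of KIAA1429 RIP over IgG RIP (x axis, log2(FPKM + 1) scale) for each of the 50 gene totals, with the 95% interval from limma and n = 2 libraries per group. Dotted lines mark 2-fold. The intervals of EIF2S2 and EIF4ENIF1 alone leave out 0 before adjustment, and those of EIF3F and EIF2B5 are the widest.

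The eIF4F group, with its helpers, was abundant, with small ratios between the antibodies. It had 9 listed genes, a median log2 ratio of 0.04, and ratios from -0.16 to 0.25. EIF4B, which stimulates the helicase eIF4A, was the most abundant of all 51 genes on the FPKM scale. It had 414 and 405 FPKM with IgG and 368 and 472 FPKM with KIAA1429. The KIAA1429 RIP values stood on both sides of the IgG RIP values, with a log2 fold change of 0.02 (SE 0.33). This total depends on how reads were divided between EIF4B transcripts of unlike length, as given below. EIF4A1, the main eIF4A helicase, had 212 and 225 FPKM with IgG and 240 and 211 FPKM with KIAA1429. EIF4H, a second cofactor of eIF4A, had 270 and 185 FPKM against 215 and 209 FPKM. Here the IgG RIP replicates were further apart than the group means.

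The scaffold EIF4G1 had 57.8 and 38.7 FPKM with IgG and 51.4 and 41.3 FPKM with KIAA1429. The IgG RIP values enclosed those of KIAA1429 RIP, and the log2 fold change was -0.04 (95% interval from -0.81 to 0.73). EIF4G2, a relative of EIF4G1 that lacks the eIF4E-binding part, had 193 and 115 FPKM in IgG RIP against 169 and 172 FPKM. EIF4G3 had 15.4 and 17.3 FPKM with IgG and 15.1 and 14.3 FPKM with KIAA1429. It is the gene of this group whose replicates did not overlap, lower with KIAA1429 as were 15.2% of all gene totals. Its log2 fold change was only -0.14 (SE 0.33). EIF4A2, a second eIF4A helicase, had 34.8 and 31.6 FPKM against 30.6 and 48.1 FPKM. The cap-binding protein mRNA itself was scarce: EIF4E had 12.6 and 6.94 FPKM against 11.2 and 9.56 FPKM, and EIF4E2, a cap-binding relative, had 17.5 and 17.1 FPKM against 13.9 and 19.8 FPKM. In both of these the groups overlapped. The 95% interval lay within 2-fold for 7 of these 9 genes, against 14.1% of all gene totals.

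The 3 listed genes of proteins that bind eIF4E held the lowest ratio of all members. EIF4ENIF1 (chr22:31835353-31885573, minus strand, GRCh37) encodes 4E-T, which binds eIF4E and carries it into the nucleus. It had 6.19 and 6.21 FPKM with IgG and 2.39 and 2.34 FPKM with KIAA1429. Both KIAA1429 RIP values were below both IgG RIP values, and the IgG mean was 2.62 times the KIAA1429 RIP mean. The log2 fold change on the log2(FPKM + 1) scale was -1.10 (SE 0.46, 95% interval from -2.19 to -0.01, adjusted p = 0.997). Its values rested on about 23 and 17 fragments with IgG and 8 and 9 with KIAA1429 by the depth estimate, and at so few fragments the closeness of its replicates is no measure of precision. EIF4EBP1, a repressor that competes with eIF4G for eIF4E, had 51.7 and 93.2 FPKM against 88.1 and 81.7 FPKM, and EIF4EBP2 ranged from 13.7 to 26.5 FPKM over the 4 libraries. The groups of both overlapped.

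No eIF3 subunit was called in either direction. Of 14 listed genes, 11 had a log2 fold change above 0 (51.4% of all gene totals did), 6 had both KIAA1429 RIP values above both IgG RIP values (16.6% of all), and 0 had both below (15.2% of all). Under median scaling 5 were above and 1, EIF3B, was below. No test was made of the group. Their median log2 ratio was 0.29, with ratios from -0.34 to 0.72. EIF3G (chr19:10225693-10230578, minus strand), an RNA-binding subunit, had 35.9 and 49.98 FPKM with IgG and 63.5 and 76.1 FPKM with KIAA1429. The groups did not overlap, with a 1.63-fold difference and a log2 fold change of 0.70 (SE 0.31, 95% interval from -0.03 to 1.43, adjusted p = 0.997). The other 5 that did not overlap, EIF3D, EIF3E, EIF3H, EIF3I and EIF3M, are named after their values were seen. Their ratios were smaller, from 0.20 in EIF3D to 0.48 in EIF3H. EIF3E had the closest replicates among them in IgG RIP, with 86.1 and 87.2 FPKM, against 114 and 125 FPKM with KIAA1429.

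In EIF3F and EIF3L the replicates were far apart. EIF3F, a core subunit, had 103 and 188 FPKM with IgG and 31.5 and 239 FPKM with KIAA1429. KIAA1429 RIP held both the lowest and the highest value, and the log2 fold change of -0.67 (SE 0.85) became 0.77 without KIAA1429 RIP 1. EIF3L had 85.8 and 31.0 FPKM against 71.1 and 122 FPKM, the largest ratio of the subunits with overlapping groups. Its log2 fold change of 0.83 became 1.55 without IgG RIP 1 and 0.12 without IgG RIP 2. EIF3J-AS1, an antisense gene that starts beside EIF3J, was under the filter, with 0.885 and 1.40 FPKM with IgG and 0.401 and 0.537 FPKM with KIAA1429. The KIAA1429 values lay below the IgG values on only 1 to 3 fragments per library, and the gene was not tested. Its listed span lies on the opposite strand and does not overlap that of EIF3J, which had 12.9 and 9.51 FPKM against 11.9 and 17.1 FPKM.

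EIF3C and EIF3CL, near-identical copies on chromosome 16, cannot be read as separate genes. Of the 2861 windows of 50 bases in EIF3C-201, 98.8% also occurred in a listed EIF3CL transcript, and their coding sequences were 99.9% identical. The coding sequences of EIF3CL-201 and EIF3C-201 differed by the 3 bases in capitals below, whose place within the repeat is arbitrary (GRCh37, chr16:28403339-28403368 on the minus strand and chr16:28734578-28734607 on the plus strand). They are shown because they are all that could assign a coding read to its gene.
EIF3CL-201: aggaggaggaggaGGAcaatgaaggcgggg
EIF3C-201: tgaggaggaggaggacaatgaaggcgggga

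EIF3C had 41.1 and 33.4 FPKM with IgG and 39.4 and 43.1 FPKM with KIAA1429, and EIF3CL had 46.6 and 45.03 FPKM against 41.1 and 52.5 FPKM. Neither pair of groups was separated. The other paralogous members were distinct by the same measure: 0 windows of EIF4A1-201 occurred in EIF4A2 (coding identity 76.6%), 0 of the EIF5A transcript tested in EIF5A2 (71.4%), and 0 of EIF1-203 in EIF1B (82.0%).

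The factors that deliver the initiator tRNA had the highest median log2 ratio of the role groups, 0.42, and all 5 listed genes had a log2 fold change above 0, as had 51.4% of all gene totals. EIF2S2 (chr20:32676104-32700138, minus strand) encodes the beta subunit of eIF2. It had 51.6 and 36.3 FPKM with IgG and 94.1 and 72.3 FPKM with KIAA1429. Both KIAA1429 RIP values exceeded both IgG RIP values, with a 1.89-fold difference in means. The log2 fold change was 0.91 (SE 0.32, 95% interval from 0.16 to 1.67), the lowest unadjusted p of the members at 0.0242 by limma, and the adjusted p was 0.997. It has 1 listed transcript, but no listed transcript has both group means under 0.5001 FPKM, so scarcer isoforms would not be seen. The depth estimate gave EIF2S2 from 70 to 212 fragments per library. EIF2S3, the gamma subunit, had 182 and 145 FPKM against 160 and 225 FPKM, with overlapping groups. EIF2S1, the alpha subunit that the stress kinases phosphorylate, had a log2 fold change of 0.29 (SE 0.36). The subunits of this 1 complex thus spanned from 0.22 to 0.91, all within each other's intervals.

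The eIF2B subunits, which recharge eIF2 with GTP, were scarce and had no call. Of the 5 listed genes, 4 had a log2 fold change below 0, and the median log2 ratio was -0.30. Of all gene totals, 51.4% had a log2 fold change above 0. EIF2B1 had 11.9 and 13.6 FPKM with IgG and 17.5 and 7.46 FPKM with KIAA1429. EIF2B4 had 10.4 and 17.4 FPKM against 15.4 and 7.10 FPKM. In both, the KIAA1429 RIP replicates were over 2-fold apart and the groups overlapped. EIF2B2, named after its values were seen, had 3.68 and 3.43 FPKM against 2.25 and 3.34 FPKM. The groups did not overlap, as was so in this direction for 15.2% of all gene totals. The values of EIF2B2 rested on from 9 to 16 fragments per library. EIF2B5, the catalytic subunit, was listed at 0.304 and 2.13 FPKM with IgG and at 0 and 7.09 FPKM with KIAA1429. Its group means were over 2-fold apart because of KIAA1429 RIP 2 alone, and the fitted log2 fold change of 0.49 (SE 1.05) became -1.02 without that library.

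The eIF2 alpha kinases, which answer to amino acid shortage, unfolded protein, viral RNA and haem shortage, had small ratios between the antibodies. Their 4 log2 ratios ran from -0.26 to 0.26 and the groups of all 4 overlapped as deposited. The 95% interval lay within 2-fold for 3 of them, against 14.1% of all gene totals. EIF2AK4 (GCN2), the most abundant, had 56.9 and 44.4 FPKM with IgG and 46.3 and 38.4 FPKM with KIAA1429. Under median scaling its KIAA1429 RIP values lay below its IgG RIP values without overlap. EIF2AK3 (PERK) had 2.12 and 2.56 FPKM against 3.20 and 2.39 FPKM, on from 9 to 13 fragments per library.

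Among the factors that act at the start codon and at subunit joining, 5 of 6 genes had a log2 fold change above 0 (51.4% of all gene totals did), and in 2 of 6 the groups did not overlap, both higher with KIAA1429 (16.6% of all). EIF5 (chr14:103799881-103811362, plus strand), the activator of GTP hydrolysis by eIF2, had 37.5 and 25.1 FPKM with IgG and 52.5 and 42.3 FPKM with KIAA1429. Both KIAA1429 RIP values were above both IgG RIP values, with a log2 fold change of 0.60 (SE 0.33, adjusted p = 0.997). EIF1, which guards start codon selection, had 90.0 and 110 FPKM against 133 and 112 FPKM, separated by only the gap from 110 to 112 FPKM. EIF1AD had 21.5 and 26.9 FPKM against 12.7 and 22.4 FPKM, with overlap. Of the members with other roles, EIF5A, an elongation and termination factor that kept its old name, had 230 and 157 FPKM against 191 and 166 FPKM. EIF6, which keeps the large ribosomal subunit from joining too early, had 60.1 and 61.3 FPKM with IgG and 81.3 and 84.4 FPKM with KIAA1429. Its replicates were close in both groups and did not overlap, with a 1.36-fold difference and a log2 fold change of 0.44 (SE 0.27, adjusted p = 0.997).

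Transcripts varied more between replicates than gene totals did. Of the 195 transcripts, 90 were listed at 0 in at least 1 library. Of the 148 member transcripts that averaged 1 FPKM or more, 0 were called in either direction, as were 0.0% of the 23375 transcripts tested, and 12 had an unadjusted p under 0.05 (8.11%, against 5.36%). At least 2-fold differences between group means were present in 29 transcripts higher (19.6%, against 19.9% of all) and 25 lower (16.9%, against 20.3%). Both KIAA1429 RIP values were above both IgG RIP values in 21 (14.2%, against 15.2%) and below in 12 (8.11%, against 14.5%). Log2 fold changes were above 0 for 84 (56.8%, against 50.4%), and the 95% interval lay within 2-fold for 6 (4.05%, against 1.54%). The replicate gap of member transcripts above 0 in all libraries had a median of 0.683 on the log2 scale in IgG RIP, against 0.357 for gene totals. Of 42 members with several listed transcripts, 28 (66.7%) had the same leading transcript in all 4 libraries, against 42.0% of 7978 tested genes.

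In EIF4B, transcripts with very different values summed to a level total. EIF4B-201 (ENST00000262056, chr12:53399942-53435993, plus strand) had 356 and 47.7 FPKM with IgG and 318 and 398 FPKM with KIAA1429. EIF4B-203 (ENST00000420463) had 45.2 and 355 FPKM with IgG and 39.6 and 66.6 FPKM with KIAA1429. In IgG RIP 2 these transcripts changed places, while the gene total there, 405 FPKM, was as in the other libraries on the FPKM scale. By the depth estimate the gene rested on about 1463 and 656 fragments with IgG and 1158 and 1644 with KIAA1429. The implied depths in that order were 995000, 752000, 883000 and 985000 fragments. Since FPKM divides by length, the level total depends on how reads were divided between these transcripts of unlike length. EIF4B-201 is 3856 bases long and EIF4B-203 is 1936, and 96.6% of the 50-base windows of EIF4B-203 also occur in EIF4B-201. Their coding sequences differ by 15 bases present only in EIF4B-203, in capitals below. They are shown because they are the one coding stretch in which these transcripts differ. The runs cross a splice junction, so their GRCh37 coordinates (chr12:53428479-53431207 and chr12:53428487-53431200) give the first and last base.
EIF4B-201: ccacatctagcagaaatgcacgaaggagag
EIF4B-203: agcagaaGTAAGTCAGACCAGGatgcacga

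Other abundant members also had transcripts that came and went between libraries. EIF4A1 ENST00000582746 was listed at 0 in 3 libraries and at 89.6 FPKM in KIAA1429 RIP 2. Its gene total there was 211 FPKM, close to the 212 FPKM of IgG RIP 1. EIF3D-203 (ENST00000405442) had 15.7 and 0.406 FPKM with IgG and 43.0 and 0 FPKM with KIAA1429, while EIF3D totals stayed between 80.4 and 94.96 FPKM. In EIF3F the gene total followed EIF3F-201 (ENST00000309828), the leading transcript in every library but KIAA1429 RIP 1. EIF3F-201 had 94.0 and 185 FPKM with IgG and 13.9 and 226 FPKM with KIAA1429. In KIAA1429 RIP 1, ENST00000533626 led with 16.6 FPKM.

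**Figure D3:**
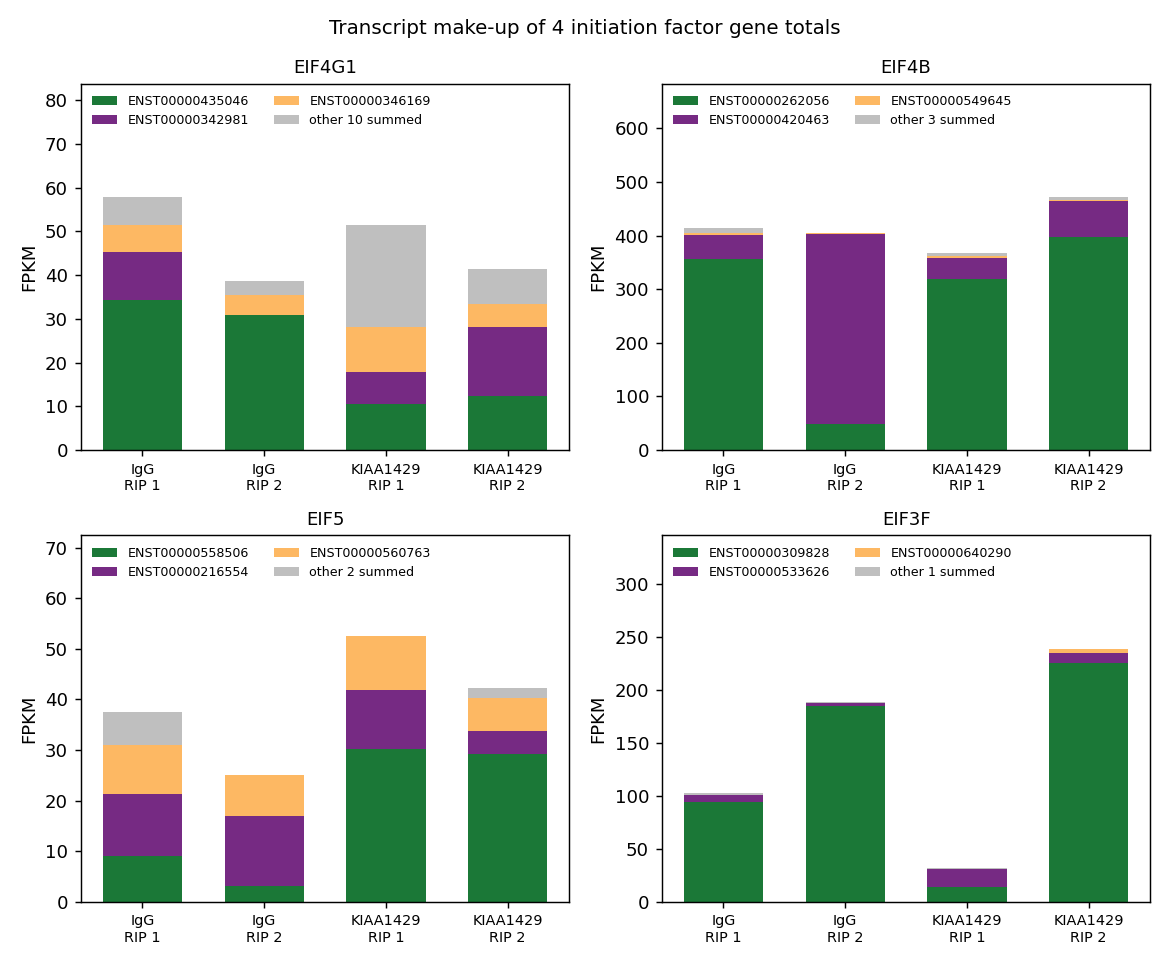
Stacked FPKM of the 3 most abundant transcripts and of the remaining transcripts summed (grey) in EIF4G1, EIF4B, EIF5 and EIF3F, with 1 bar per library. The height of a bar is the gene total. The EIF4B bars are alike in height and differ in make-up in IgG RIP 2, the green EIF4G1 transcript is smaller in both KIAA1429 RIP bars, and the green EIF5 transcript is larger in both.

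EIF4G1 (chr3:184032283-184053146, plus strand) was examined by transcript. The gene was among the candidates that the study drew from its sequencing data, so its direction here is no independent evidence. The study's RIP-seq candidates were transcripts enriched 2-fold with KIAA1429, while the gene total here had a log2 fold change of -0.04. The text of the study does not name the EIF4G1 transcript. EIF4G1 has 13 listed transcripts, of which 8 had a mean of at least 1 FPKM and 3 were above 0 in all libraries. ENST00000435046 (chr3:184038452-184053135), its most abundant transcript, had 34.4 and 30.9 FPKM with IgG and 10.5 and 12.4 FPKM with KIAA1429. Both KIAA1429 RIP values were below both IgG RIP values, by more than the spread within either group. The log2 fold change was -1.44 (SE 0.33, 95% interval from -2.32 to -0.57), with an unadjusted limma p of 0.00867, which ranked 280 among the 23375 transcripts tested, and an adjusted p of 0.723. It was the lowest unadjusted p among the member transcripts, and it was not called.

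The other 12 EIF4G1 transcripts were higher in sum with KIAA1429. They had 23.4 and 7.75 FPKM with IgG and 40.9 and 28.9 FPKM with KIAA1429, without overlap. The difference of group means was -21.2 FPKM for ENST00000435046 and 19.4 FPKM for the others together, which left -1.89 FPKM for the gene total. The share of ENST00000435046 in the total was thus 59.5% and 79.97% with IgG and 20.4% and 29.9% with KIAA1429. Since the transcripts share most of their exons, the values are estimates of how shared reads divide, and the sum is the firmer quantity.

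Which of the others were higher differed between the KIAA1429 RIP libraries. ENST00000342981, the second most abundant, had 10.8 and 0 FPKM with IgG and 7.48 and 15.8 FPKM with KIAA1429. ENST00000434061 had 0.132 and 0.0688 FPKM with IgG and 6.29 and 0.411 FPKM with KIAA1429, a difference that rested on KIAA1429 RIP 1. ENST00000346169, which was above 0 in all libraries, had 6.27 and 4.48 FPKM against 10.1 and 5.13 FPKM, with overlapping groups. The log2 fold changes of the 7 tested transcripts other than ENST00000435046 were all above 0, from 0.38 to 1.85, with standard errors from 0.52 to 1.28. ENST00000434061, ENST00000427845, ENST00000411531, ENST00000441154 and ENST00000440448 had IgG RIP means of at most 0.198 FPKM. With so little in IgG RIP, a transcript could average 1 FPKM and be tested only if it was higher with KIAA1429. The filter thus fixed the sign of these transcripts, which is no evidence of direction. The signs of the 7 also rest on single libraries in part. ENST00000342981 went from 1.80 to 0.0161 without IgG RIP 2 and to 3.58 without IgG RIP 1. Without KIAA1429 RIP 1, ENST00000346169 and ENST00000427845 reversed to -0.0413 and -0.15. The transcripts under 1 FPKM on average were not tested and mostly went the other way. Group means were lower with KIAA1429 in ENST00000456033 (1.21 against 0.461 FPKM), ENST00000426123 (1.22 against 0), ENST00000414031 (1.14 against 0) and ENST00000392537 (0.835 against 0). ENST00000444861 was higher with KIAA1429 (0 against 0.903 FPKM).

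As listed, ENST00000435046 begins inside the gene, within exon 7 of the 32 exons of ENST00000342981 (chr3:184038418-184038510). Its first 30 bases are shown because they contain the start codon, in capitals, that the annotation gives to ENST00000434061, 17 bases after the listed start. The letters are from GRCh37 (chr3:184038452-184038481, plus strand).
EIF4G1 at the listed start of ENST00000435046: atatcacagaggagatcATGtctggggccc

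These bases lie within the coding sequence of ENST00000342981, whose coding length is 4800 bases against 4212 for ENST00000434061. In the GENCODE annotation used here a later version of ENST00000435046 starts further upstream, at chr3:184032355. The exons of ENST00000342981 were therefore taken to place the listed start of ENST00000435046.

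EIF5 had a comparable case in the other direction. ENST00000558506 had 9.12 and 3.14 FPKM with IgG and 30.1 and 29.1 FPKM with KIAA1429. The groups did not overlap, with a log2 fold change of 2.24 (SE 0.55, adjusted p = 0.767). ENST00000216554 had 12.3 and 13.8 FPKM with IgG and 11.6 and 4.58 FPKM with KIAA1429. As listed, the higher EIF5 total thus lay in 1 transcript, but these values are estimates of how reads were divided between transcripts of the gene. The depth estimate gave EIF5 from 74 to 182 fragments per library. Both transcripts are named after their values were seen. Among member transcripts averaging 1 FPKM or more, 5 were at 0 in both IgG RIP libraries and above 0 in both KIAA1429 RIP libraries. For 4 the reverse held. The share over all transcripts was not computed, so these counts are no result about the members.

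Many mRNAs of the translation machinery begin with a C followed by a run of pyrimidines, the terminal oligopyrimidine motif, through which their translation is controlled together. A start with C followed by at least 4 letters C or T, read on the strand of the gene at the RefSeq start site (GRCh38.p14), was present in 9 of the 41 members with a start site in the table (22.0%). The same start was present in 5.69% of 8594 tested genes and in 4.04% of all 27305 start sites. The 9 were EIF2A, EIF2D, EIF2S3, EIF3D, EIF3F, EIF3K, EIF3M, EIF4A2 and EIF4B. The first 20 bases are given for 4 of them and for EIF4ENIF1, which lacks the motif, to show what was counted, with the run in capitals. Each was placed on GRCh37 by an exact match of its promoter, at chr3:150264574-150264593 for EIF2A, chr22:36925194-36925213 (minus strand) for EIF3D, chr11:8008884-8008903 for EIF3F, chr12:53400240-53400259 for EIF4B and chr22:31885809-31885828 (minus strand) for EIF4ENIF1.
EIF2A: CTCTTTCCgggacaacatgg
EIF3D: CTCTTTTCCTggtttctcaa
EIF3F: CTTCTTTCTCgacaagatgg
EIF4B: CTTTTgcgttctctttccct
EIF4ENIF1: agttacggcggctgaagaga

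The median log2 ratio was 0.24 in the 9 members with this start (from -0.11 to 0.51, above 0 in 8) and 0.07 in the other 32. Over all tested genes with a start site it was 0.15 with this start and 0.00 without. The difference among the members was therefore of the size seen over all genes, and no test was made of it.

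The letters GGAC, a common core of m6A sites, were counted on the transcript strand. They occurred at a median of 3.87 per kilobase in the most abundant transcript of 47 members with a sequence, against 3.60 per kilobase over 10935 genes. For EIF4G1 this sequence was the later version of ENST00000435046, of 5042 bases, which starts upstream of the listed one. Across the members, whose values come from the same 4 libraries, Spearman's rho between the log2 ratio and GGAC per kilobase was -0.22, and with transcript length it was -0.09. Over all genes these were -0.08 and -0.20. They are descriptions across genes, which are not independent replicates.

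No gene of a wider list on initiation and its control was called either. Of its 23 genes, 21 were listed and tested. Both KIAA1429 RIP values were above both IgG RIP values in 2 and below in 3, where the shares of all gene totals, 16.6% and 15.2%, are no smaller, and the median log2 ratio was 0.27. ATF4, the transcription factor whose translation rises when eIF2 is phosphorylated, had 170 and 203 FPKM with IgG and 230 and 274 FPKM with KIAA1429, without overlap. DENR, which recycles and reinitiates ribosomes, had 29.6 and 19.9 FPKM against 34.5 and 32.4 FPKM. The lower ones were PDCD4, an inhibitor of eIF4A, with 15.2 and 17.9 FPKM against 11.2 and 9.40 FPKM, ABCE1, which splits ribosomes, with 21.2 and 24.1 FPKM against 16.4 and 12.8 FPKM, and PPP1R15B, which helps to dephosphorylate eIF2, with 18.1 and 18.8 FPKM against 15.6 and 16.8 FPKM. These 5 are named after their values were seen, and all had an adjusted p of 0.997.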

How the data were processed

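RIP-seq was performed in HCCLM3 cells with 2 libraries per antibody, grouped by the sample titles. Poly(A) RNA was selected, fragmented and primed with random hexamers. The study's methods name HISAT2 for alignment and the submitters' processing notes name Bowtie2 2.1.0, both with GRCh37/hg19. The authors deposited FPKM per transcript, without counts. The tool that made the FPKM values and the annotation release are not given in the sources used here. Each listed transcript had a group mean of at least 0.5001 FPKM in 1 group or more, and gene totals add up the listed transcripts. No input library was used here.

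Features with a mean of at least 1 FPKM (11361 gene totals, 23375 transcripts) were tested as log2(FPKM + 1) in limma 3.58.1 under R 4.3.3 (lmFit, then eBayes with an intensity trend), two-sided, and p-values were adjusted by Benjamini-Hochberg across all features tested. The count test named in the study's methods could not be used on FPKM. Fold changes on this scale understate the change of low genes. Other values were computed in Python 3.11.15. Transcript lengths and sequences came from GENCODE v44 on GRCh37, where 188 of 195 transcript IDs matched and 128 had the listed start and end, so the fragment numbers are estimates. Start sites came from RefSeq. Full values were described for the eIF4F genes. In each other role group they were described for the most abundant gene and for those with the highest and lowest log2 fold change. They were also described for genes whose groups did not overlap with a log2 ratio beyond 0.5. The members, lists and this rule were chosen with earlier results of these data known. Alternatives tried were pseudocounts of 0.1 and 0.01, no filter and a filter at 5 FPKM, median scaling, quantile normalization, a replicate block, no trend, protein_coding transcripts only, the most abundant transcript, and each library left out.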

Additional observations from a re-analysis of the deposited data

How the results depend on the processing

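No member changed its call under any alternative that was run. This says little about stability, since the main fit called 0 of 11361 gene totals in either direction. The lowest adjusted p of a member there was 0.997 by limma, so a count of 0 had little room to change. Replicate numbers 1 and 2 occur in both groups, but no label says that a number marks a shared culture or day, and deviations of same-numbered libraries correlated at 0.187 over gene totals and 0.03 over transcripts. With the replicate number as a block, 12 gene totals were called higher and 1 lower, of which 0 were members, whose lowest adjusted p was 0.203. The counts of members at least 2-fold higher and lower, 1 each, became 0 and 0 with a filter at 5 FPKM, under which 1 non-overlapping lower gene was left, and 2 and 2 with the most abundant transcript of each gene. Without a filter 2 were lower, the second being EIF3J-AS1. Leaving out a library gave from 1 to 4 higher and from 1 to 3 lower, and non-overlap in 14 to 29 genes higher and 6 to 16 lower, where 1 library in a group makes separation easier by construction. In the same settings 29.4 to 40.2% of all gene totals were higher and 29.3 to 37.8% lower. The count of 29 (58.0% of members, against 40.2%) came without IgG RIP 1, where the median log2 ratio of all gene totals also shifted to 0.14, and without IgG RIP 2 the higher share was 28.0% against 29.4%. Without KIAA1429 RIP 1, 25 members were higher without overlap, a larger share than the 30.5% of all gene totals. The median log2 ratio of all gene totals was -0.0509 in that setting, and that of the members was 0.196. Without KIAA1429 RIP 2 the higher share was 34.0% against 34.1%. The cause of these differences between settings was not tested. The members' median log2 ratio ran from 0.05 to 0.30 without 1 library. Under median scaling 9 of the 11 higher genes and 2 of the 3 lower ones kept their separation, EIF1, EIF3I and EIF4G3 lost it, and EIF2AK4 and EIF3B became lower without overlap (9 members higher and 4 lower, against 16.6% and 15.7% of all gene totals). With the most abundant transcript 6 of the 11 higher genes kept it, and EIF1, EIF2D, EIF3D, EIF3E and EIF6 lost it.

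Of 316 single values under alternatives that kept all libraries, 8 reversed. On the log2 scale these were EIF4A1 at -0.13 with quantile normalization and -0.22 with the most abundant transcript, EIF4B at -0.40 with quantile normalization, EIF1AD at 0.0616 and EIF4E2 at 0.89 with the most abundant transcript, EIF4G3 at 0.0708 with protein_coding transcripts only, and EIF2B5 at -0.16 and -1.62 with pseudocounts of 0.1 and 0.01. The cause was not tested. Of 136 values without 1 library, 22 reversed. The ranges of the genes concerned were -1.02 to 1.9998 in EIF2B5, -0.0514 to 0.136 in EIF4A1, -0.13 to 0.70 in EIF4EBP1, -0.32 to 0.25 in EIF4G1, -0.35 to 0.19 in EIF4H, -0.37 to 0.18 in EIF5A, -0.84 to 0.18 in EIF2B4, -0.26 to 0.52 in EIF4E, -0.18 to 0.57 in EIF4G2, -2.11 to 0.77 in EIF3F, -0.30 to 0.19 in EIF4E2, -0.70 to 0.44 in EIF2B1, -0.018 to 0.465 in EIF2S3, -0.11 to 0.52 in EIF4A2, -0.15 to 0.20 in EIF4B, -0.0413 to 0.81 in ENST00000346169 and -0.15 to 2.63 in ENST00000427845. Directions of these genes therefore rest on single libraries. At the implied depth of 752000 to 995000 fragments per library, counting error limits most the 7 genes with under 30 fragments in every library.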
